A study of Mus musculus with 6 samples.

Results

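Collagens are the triple-helical proteins that give the extracellular matrix of the heart its strength. Fibrillar collagens of types I, III and V assemble into the fibres between cardiomyocytes, are made mainly by cardiac fibroblasts, and accumulate in fibrosis. Type IV collagen forms the sheet-like network of basement membranes around cardiomyocytes and capillaries, type VI forms beaded filaments that link the 2 compartments, and the remaining families decorate fibrils, line vessels or sit in cell membranes.

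The collagen genes were all gene entries whose symbol is Col, a number, a and a number. The table held 44 such symbols among 24391 entries. The 34 with a mean of at least 10 normalized counts over all 18 libraries are described here, and all 34 are among the 13032 genes that reached this mean and were tested. They comprise 10 fibrillar chains, 6 chains of the basement membrane network, 2 short chains, 5 chains of beaded filaments, 5 fibril-associated chains with interrupted triple helices (FACIT), 2 multiplexins, 3 transmembrane collagens and Col26a1. Just inside the limit lay Col22a1 with a mean of 14.2, Col24a1 with 14.4 and Col13a1 with 14.6. Just outside lay Col7a1 with 9.08 and Col9a2 with 9. The other 8 symbols under the limit were Col2a1 (6.81), Col9a1 (6.71), Col9a3 (4.78), Col6a5 (3.98), Col19a1 (3.15), Col17a1 (2.26), Col10a1 (0.5) and Col6a4 (0.23), and none of these 10 was tested. Col24a1 and Col26a1 reached the limit through the youngest libraries, so counts between ages are given also for the 21 members with a mean of at least 100.

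Libraries from total RNA of cardiac ventricles were sequenced from mice of the C57BL/6 background that were wild type (WT) or Klf15 knockout (Klf15 KO, here KO), at postnatal day 10 (P10), 4 weeks (4w) and 20 weeks (20w). KLF15 is a Krüppel-like zinc finger transcription factor that restrains hypertrophic and fibrotic gene expression in the heart and regulates its metabolism. Each of the 6 groups had 3 libraries. The sources used here give neither the making of the allele, nor the sex of the mice, nor whether each library is a separate animal. The p-values therefore set a difference between groups against the spread of these libraries, which may in part be technical. The 3 libraries of a group are written in the order of their numbers, and all values are the authors' normalized counts unless stated otherwise.

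Per library, 9504538 to 29278351 reads were assigned to genes, and the 34 collagen genes took 12417 to 343040 of them. At 20w every KO library was deeper than every WT library, with 10676605 to 17733942 reads against 9504538 to 9630244. Depth and genotype therefore go together at that age, and the part of depth in the 20w values was not tested. Klf15 was at 149.7 ± 12.9 in P10 WT and 22.5 ± 4.4 in P10 KO, at 1078 ± 212 and 42.2 ± 13.2 at 4w, and at 1022 ± 74.3 and 40.0 ± 6.3 at 20w (mean ± SD, n = 3), and no KO library reached the WT range of its age. Rn45s, a ribosomal RNA gene, made up 30.8% of reads in 4w KO replicate 2 and at most 2.72% in any other library. The third 20w KO library was the highest of its group for 23 of the 34 collagen genes, against 28.8% of all genes tested. The first 4w WT library was the highest of its group for 24 of 34, against 35.8% of all genes, and the third 4w KO library for 21 of 34, against 36.6%. None of 8 cardiomyocyte, 10 non-collagen fibroblast and 8 endothelial markers was at 0, and the cardiomyocyte markers summed to 596406 to 1117959 normalized counts. Of 9 cartilage and bone markers found, Ibsp was at 0 in every library and 5 had means under 10, and the 4 lung epithelial markers summed to at most 11.4. The 6 skeletal muscle markers summed to 712.5 in 4w WT replicate 2 and to at most 29.8 in any other library. Without that library, 25 of the 34 collagen genes were called between P10 and 4w in WT and 26 between 4w and 20w, against 26 and 25 with it.

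Promoter sequences are shown for the collagen genes on which the results below turn, because KLF15 and related Krüppel-like factors are known to bind CACCC and GC-rich boxes. They are the 250 bases before the annotated gene start on the gene's strand, from RefSeq on build GRCm38.p6, whereas the submitters' processing notes name mm9. Col3a1 carries the largest share of the fibrillar signal at P10. Col8a1 was lower in KO at P10, and Col5a3, Col6a2 and Col6a3 were higher in KO at 20w. Col4a2, also higher at 20w, is not printed because its window overlaps annotated exons of its neighbour Col4a1. That window held 1 CACCC, 2 GGGCGG and 1 CCAAT box. Capitals mark the CACCC box, which on the other strand reads as GGGTG, the GC box GGGCGG, which there reads as CCGCCC, and the CCAAT box, which there reads as ATTGG. Both strands were searched.
Col3a1, chr1:45311288-45311537, plus strand: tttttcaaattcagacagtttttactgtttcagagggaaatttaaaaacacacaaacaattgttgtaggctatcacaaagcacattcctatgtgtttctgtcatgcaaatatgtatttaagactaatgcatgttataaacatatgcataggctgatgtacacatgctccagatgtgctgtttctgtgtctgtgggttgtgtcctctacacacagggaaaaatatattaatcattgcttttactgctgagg
Col8a1, chr16:57754738-57754987, minus strand: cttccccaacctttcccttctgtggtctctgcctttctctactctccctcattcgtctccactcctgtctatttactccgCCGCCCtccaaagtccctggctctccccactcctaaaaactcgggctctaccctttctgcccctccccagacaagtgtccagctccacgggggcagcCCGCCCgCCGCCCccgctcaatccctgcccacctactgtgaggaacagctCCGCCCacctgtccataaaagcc
Col5a3, chr9:20815068-20815317, minus strand: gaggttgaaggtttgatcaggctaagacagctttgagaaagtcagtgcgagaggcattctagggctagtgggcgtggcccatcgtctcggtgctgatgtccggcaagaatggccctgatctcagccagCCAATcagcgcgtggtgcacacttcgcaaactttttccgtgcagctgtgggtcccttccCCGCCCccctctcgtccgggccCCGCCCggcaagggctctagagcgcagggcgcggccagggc
Col6a2, chr10:76623631-76623880, minus strand: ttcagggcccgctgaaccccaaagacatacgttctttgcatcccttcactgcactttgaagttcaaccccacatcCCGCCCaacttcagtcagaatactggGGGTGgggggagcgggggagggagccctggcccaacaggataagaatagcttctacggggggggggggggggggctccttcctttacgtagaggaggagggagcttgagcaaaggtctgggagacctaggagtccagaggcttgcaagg
Col6a3, chr1:90843972-90844221, minus strand: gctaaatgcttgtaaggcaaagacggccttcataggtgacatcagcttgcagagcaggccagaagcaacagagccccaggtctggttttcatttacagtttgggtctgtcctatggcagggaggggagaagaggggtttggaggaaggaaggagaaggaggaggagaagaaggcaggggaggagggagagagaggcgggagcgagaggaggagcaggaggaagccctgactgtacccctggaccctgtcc
The Col8a1 window held 4 GGGCGG boxes, the Col5a3 window 2 and the Col6a2 window 1. The Col6a2 window held 1 CACCC box and the Col5a3 window 1 CCAAT box. None of the 3 motifs was found in the windows of Col3a1 and Col6a3. GC content was 35.2% for Col3a1 and 57.2% to 62.8% for the other 4. The RefSeq table held 27 of the 34 members. Not in it were Col1a1, Col4a3, Col5a2, Col12a1, Col14a1, Col22a1 and Col26a1. CACCC was present in 20 of the 27 windows and in 51.3% of all 27025 promoter windows of that length. GGGCGG was present in 17 of 27 and in 32.9% of all, and CCAAT in 9 of 27 and in 34.5% of all. For each gene these counts took the first listed start, whereas the printed windows lie before the most upstream start. The windows can therefore differ for a gene with several starts. A match is a description of letters only.

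**Figure D1:**
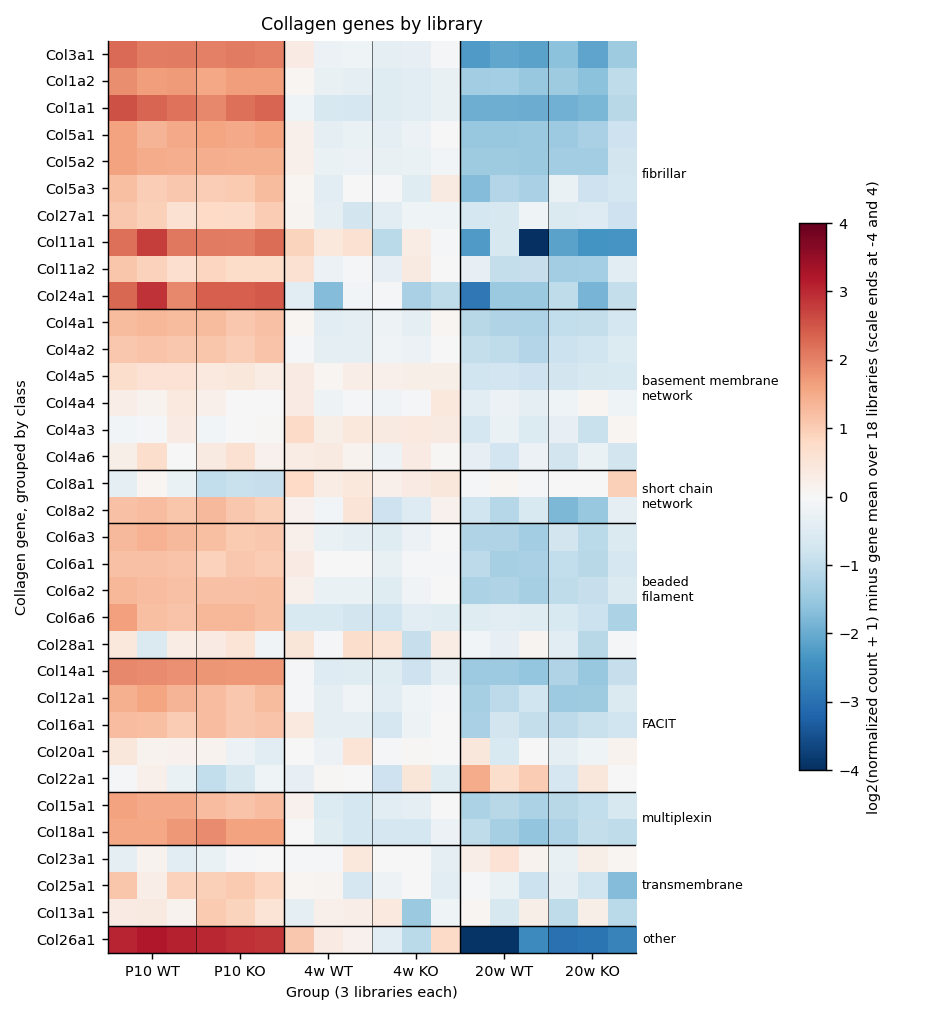
Log2(normalized count + 1) of each of the 34 collagen genes (rows, grouped by class) in each of the 18 libraries (columns), minus the gene's mean over all libraries. Red is above and blue below that mean. Most rows go from red at P10 to blue at 20w in both genotypes, while Col8a1, Col22a1 and Col23a1 are among those that do not.

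In WT ventricles, collagen messenger RNA was highest at P10 and lowest at 20w. The single gene with the highest level per kb of transcript was Col3a1 at P10 and Col4a1 at 20w. Divided by transcript length, the summed level of the 34 genes was 24548 ± 1062 normalized counts per kb in P10 WT, 7532 ± 1393 in 4w WT and 3300 ± 114 in 20w WT (SD, n = 3). The 4w level was thus 30.7% and the 20w level 13.4% of that at P10. As a share of all reads, collagen genes took 1.2% to 1.3% in P10 WT libraries, 0.288% to 0.415% in 4w WT and 0.129% to 0.138% in 20w WT. In whole tissue, fewer cells of a type and less RNA per cell cannot be told apart.

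From P10 to 4w in WT, 25 of the 34 collagen genes fell and 1 rose, where 29.2% of all genes tested fell and 28.7% rose (limma adjusted p under 0.05, adjusted over all 13032 genes). The median log2 fold change of the members was -1.31, against -0.01 for all genes. Among the 21 members with a mean of at least 100, 18 fell and 1 rose. From 4w to 20w in WT, 24 of 34 fell and 1 rose, where 11.8% of all genes fell and 13.3% rose. The median was -0.93 against -0.02, and 19 of the 21 abundant members fell with 0 rising. The 2 comparisons share the 4w WT libraries. With libraries scaled to a common total, the median of all genes itself moved to -0.257 from P10 to 4w and to -0.156 from 4w to 20w, and the collagen medians to -1.56 and -1.07.

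Among the 21 abundant members, Col1a1 had the lowest fold change from P10 to 4w and Col3a1 the lowest from 4w to 20w, both fibrillar chains. Col1a1, the alpha 1 chain of type I collagen, was at 13109.6, 11363 and 10214 in P10 WT, at 2001, 1451 and 1422 in 4w WT and at 586, 589 and 572 in 20w WT. Col1a2, its alpha 2 partner, was at 14206, 12339 and 12690.4, then 4103, 3142 and 3046, then 1486, 1508 and 1371. Col3a1, the single chain of type III collagen, was at 44022, 38126 and 38955, then 11442, 7755 and 8188, then 1928, 2166 and 2072. For all 3 genes every library lay below every library of the previous age. On the log2 scale Col1a1 fell by 2.84 between P10 and 4w (SE 0.16, limma adjusted p = 4.4e-11) and by 1.46 from 4w to 20w (SE 0.16, limma adjusted p = 4.7e-06). Col1a2 fell by 1.94 and 1.22, and Col3a1 by 2.16 and 2.13 (SE 0.12 to 0.14, limma adjusted p at most 1.4e-06). Types V, XI and XXIV copolymerise with or nucleate the larger fibrils. Col5a1, Col5a2 and Col5a3 fell by 1.19 to 1.65 in the first interval and by 1.29 to 1.36 in the second. Col24a1, with 34.7, 53.1 and 26.8 in P10 WT and 1.2 to 5.8 in 4w WT, had the lowest fold change from P10 to 4w (-3.12 ± 0.51 SE, limma adjusted p = 2.7e-05). It passed the filter on the mean through the P10 libraries, so its fall from P10 is not independent of that filter. Col11a1 had one of the 3 lowest from 4w to 20w (-3.19 ± 0.61, limma adjusted p = 8.5e-04), with 48.8, 35.7 and 40.6 in 4w WT and 4.7, 16.4 and 0 in 20w WT. Col11a2 fell in both intervals (-0.78 and -0.84). Col27a1 fell only in the first by this test (-1.20), and its value for the second was -0.18 (95% interval -0.60 to 0.23); the difference between the intervals was not tested.

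Of the 6 basement membrane chains, Col4a1, Col4a2 and Col4a5 fell in both intervals, Col4a3 and Col4a6 in the second alone by this test, and Col4a4 in neither. Col4a1 and Col4a2 make the common alpha1-alpha1-alpha2 network and lie head to head on chromosome 8. Col4a1 was at 28374, 30129.9 and 28383 in P10 WT, 12439.5, 8894 and 9337 in 4w WT and 5531, 5139.9 and 5066 in 20w WT. Col4a2 was at 16475, 17116 and 16555, then 7469, 5926 and 5984, then 4009.7, 3889.9 and 3483. Neither gene overlapped between adjacent ages. Col4a1 fell by 1.52 and then 0.95, and Col4a2 by 1.38 and then 0.76 (SE 0.1 to 0.12, limma adjusted p at most 1.8e-05). Col4a5, which with Col4a6 or with Col4a3 and Col4a4 makes the specialised networks known from kidney and skin, fell by 0.40 from P10 to 4w and by 1.01 from 4w to 20w. Its head-to-head neighbour Col4a6 had -0.04 (adjusted p = 0.89 in the limma model) in the first interval and fell by 0.73 in the second. The head-to-head pair Col4a3 and Col4a4 did not pass the test in the first interval, with 0.42 and -0.27 (limma adjusted p = 0.062 and 0.13). In the second, Col4a3 fell by 0.98 and Col4a4 had -0.37 (limma adjusted p = 0.07).

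Type VI collagen forms a pericellular network from an alpha1-alpha2-alpha3 heterotrimer. Col6a1 was at 3509, 3536 and 3399 in P10 WT, 1971, 1521 and 1573 in 4w WT and 757, 614 and 632 in 20w WT. Col6a2, next to Col6a1 on the same strand of chromosome 10, was at 3536, 3333 and 3204, then 1618, 1185 and 1181, then 583, 612 and 555. Col6a3 was at 4141, 4455 and 4170.1, then 1919.9, 1408 and 1321, then 738, 730.3 and 637. The groups did not overlap for any of the 3 chains, which fell by 1.05 to 1.48 in the first interval and by 1.13 to 1.33 in the second (limma adjusted p at most 9.2e-06). Col6a6, an alternative to the alpha3 chain, had another course. It was at 982, 729 and 707 in P10 WT, 208, 209 and 190.2 in 4w WT and 227, 230.3 and 227 in 20w WT. It fell by 1.98 and then had 0.18 (95% interval -0.12 to 0.47). Col28a1, a beaded collagen known from peripheral nerve, did not pass the test in either interval (0.35 and -0.49).

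Among the fibril-associated chains, Col14a1 fell by 2.25 and 1.11, Col12a1 by 1.66 and 0.85, and Col16a1 by 1.26 and 0.88. Col20a1, at 9.9 to 23.2 in WT libraries, did not pass the test. Col22a1, known from the myotendinous junction, was the single riser from 4w to 20w. Its values were 10, 13.1 and 12.8 in 4w WT and 37.6, 21.4 and 26.7 in 20w WT (log2 fold change 1.16 ± 0.37 SE, limma adjusted p = 0.026). This call was lost without 4w WT replicate 1, 20w WT replicate 1 or 20w WT replicate 3 (1.05, 0.95 and 1.19), and with libraries scaled to a common total (1.03, limma adjusted p = 0.068). Of the multiplexins, whose C-terminal fragments are endostatins, Col15a1 was at 5763, 5424 and 5424 in P10 WT, 2109.7, 1288 and 1167 in 4w WT and 794, 873 and 781 in 20w WT. It fell by 1.91 and 0.85, with no overlap between ages. Col18a1 fell by 2.01 and 0.91. Of the transmembrane collagens, Col25a1 fell from P10 to 4w (-0.92), and Col13a1 and Col23a1 did not pass the test in either interval. Col26a1, a short secreted collagen-like protein, was at 123, 139 and 127 in P10 WT, 31.1, 17.9 and 16.2 in 4w WT and 0, 0 and 1.6 in 20w WT (-2.57 ± 0.42 and -4.0 ± 0.42 SE, limma adjusted p = 2.6e-05 and 1.9e-06). With 1 pseudocount these values understate the change of so low a gene. Col26a1 too passed the filter on the mean through the P10 libraries, so its fall from P10 is not independent of that filter.

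Type VIII collagen is a short-chain network former of vessel walls. Col8a1 was the single riser from P10 to 4w. It was at 529, 714 and 566 in P10 WT, 1191, 834 and 905 in 4w WT and 644, 719 and 639.9 in 20w WT. All 4w libraries lay above all P10 libraries (0.69 ± 0.18 SE, limma adjusted p = 0.0033). With libraries scaled to a common total the value was 0.44 (limma adjusted p = 0.062), and 0.44 also when Rn45s was left out of the total (0.053). In KO the rise was 1.26 (limma adjusted p = 9.1e-06). From 4w to 20w Col8a1 fell by 0.53 in WT (limma adjusted p = 0.04). This last call was lost with DESeq2 (adjusted p = 0.079), with no filter on low values (limma adjusted p = 0.067) and under 5 of the 18 leave-outs, namely 4w WT replicate 1 or 3 or any of the 20w WT libraries, with values of -0.59 to -0.38. Col8a2, its partner chain, fell by 0.99 and 1.04.

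**Figure D2:**
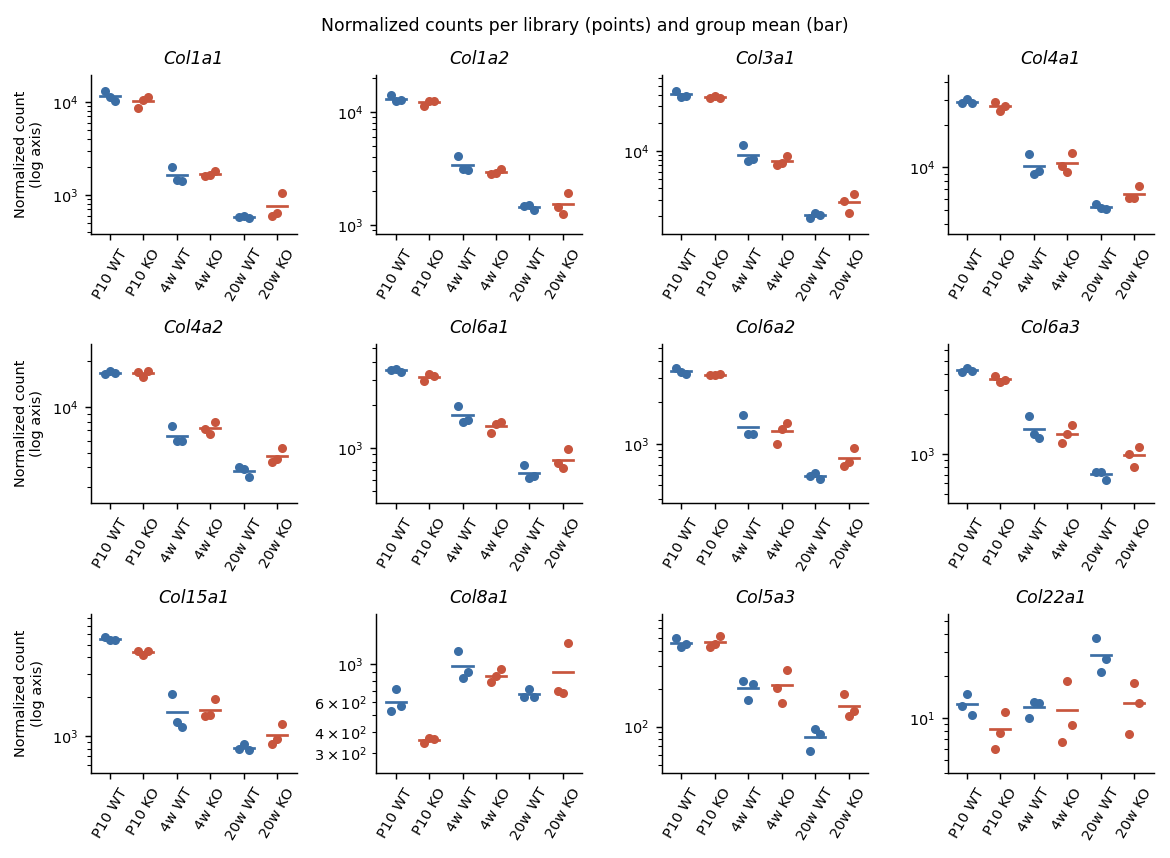
Normalized counts of 12 collagen genes on logarithmic axes, with 1 point per library, blue for WT and red for KO, and a bar at the mean of the 3 libraries. Col8a1 is lower in all 3 P10 KO libraries than in any P10 WT library, and the third 20w KO library lies highest of its group for Col1a1, Col3a1 and Col8a1.

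Levels were compared between genes per kb of the longest protein-coding transcript of the GENCODE basic set. In P10 WT, Col3a1 led with 7255 ± 574 normalized counts per kb, followed by Col4a1 with 4378 ± 153, Col4a2 with 2592 ± 54.2, Col1a2 with 2446 ± 186 and Col1a1 with 1950 ± 246 (SD, n = 3). Col4a2 and Col1a2 differed by less than the larger of their SDs. These first 4 genes held 67.9% of the summed level. In 20w WT, Col4a1 led with 793 ± 37.8 and Col4a2 followed with 588 ± 42.8, ahead of Col3a1 with 369 ± 21.5 and Col1a2 with 272 ± 13.8. Col1a1 had moved from rank 5 to rank 10, at 98.2 ± 1.5. Type III made up 29.5% ± 1.18 of the summed level in P10 WT, 21.7% ± 0.75 in 4w WT and 11.2% ± 0.82 in 20w WT. Type I went from 17.9% ± 0.89 to 12.2% ± 0.36 and 11.2% ± 0.13, and type IV from 30.5% ± 1.68 to 39.3% ± 1.09 and 48.1% ± 0.97. Type VIII went from 0.57% ± 0.09 to 2.69% ± 0.1 and 4.12% ± 0.21, while type V stayed between 4.67% and 5.26% in the group means. Of the types named here, the shares of types I, III, IV and VIII did not overlap between the WT groups.

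**Figure D3:**
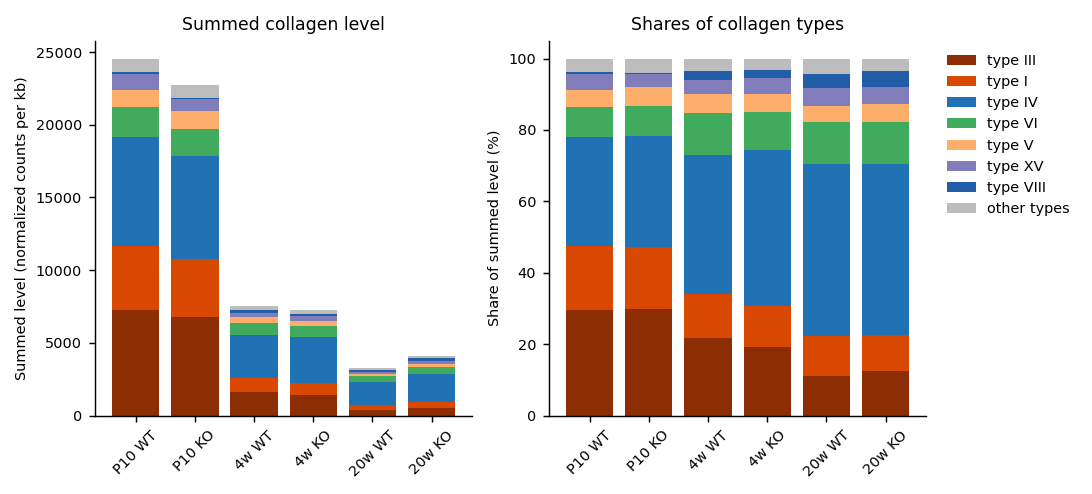
Left, summed level of the 34 collagen genes per group in normalized counts per kb (mean of 3 libraries), stacked by collagen type. Right, the same as percent of the sum. The WT sum goes from 24548 to 3300 per kb between P10 and 20w, and the type IV share from 30.5% to 48.1%.

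Chains that assemble into 1 protein did not keep a constant ratio of messenger RNA. The ratio of Col1a1 to Col1a2 normalized counts was 0.883 ± 0.068 in P10 WT, 0.472 ± 0.014 in 4w WT and 0.401 ± 0.015 in 20w WT (SD, n = 3). Lengths do not differ between libraries, so they cancel in these comparisons. Over both genotypes, the log2 ratio was lower by 0.72 at 4w than at P10 and lower by 0.23 at 20w than at 4w, given as differences of -0.72 and -0.23 (exact two-sided permutation within genotype, p = 0.005, the smallest it allows; adjusted over 18 ratio tests 0.036). The ratio of Col4a1 to Col4a2 was 1.73 ± 0.025, 1.58 ± 0.083 and 1.39 ± 0.067 in WT from P10 to 20w (log2 differences -0.14 and -0.15 over both genotypes, exact permutation adjusted p = 0.036 each). The ratio of Col1a1 to Col3a1 was 0.286 ± 0.021, 0.179 ± 0.007 and 0.284 ± 0.017, so it was lowest at 4w (-0.47, exact permutation adjusted p = 0.036, and 0.47, adjusted p = 0.06). These age tests of ratios were added after the values had been seen.

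Between genotypes, the log2 ratio of Col1a1 to Col1a2 was higher in KO by 0.16 over the 3 ages (exact permutation within age, p = 0.036, adjusted 0.081). It was 0.753, 0.839 and 0.907 in P10 KO, 0.572, 0.567 and 0.579 in 4w KO and 0.418, 0.505 and 0.546 in 20w KO as a ratio. The 4w KO libraries lay above the 4w WT libraries, at 0.488, 0.462 and 0.467, and 20w KO replicate 1 equalled the highest 20w WT library at 0.418. The log2 ratio of Col4a1 to Col4a2 was lower in KO, with a difference of -0.07 (exact permutation p = 0.033, adjusted 0.081), and that of Col1a1 to Col3a1 differed by 0.03 (exact permutation p = 0.72). After adjustment none of the 3 passed 0.05. Within 1 age, 3 against 3 libraries allow no p below 0.1.

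**Figure D4:**
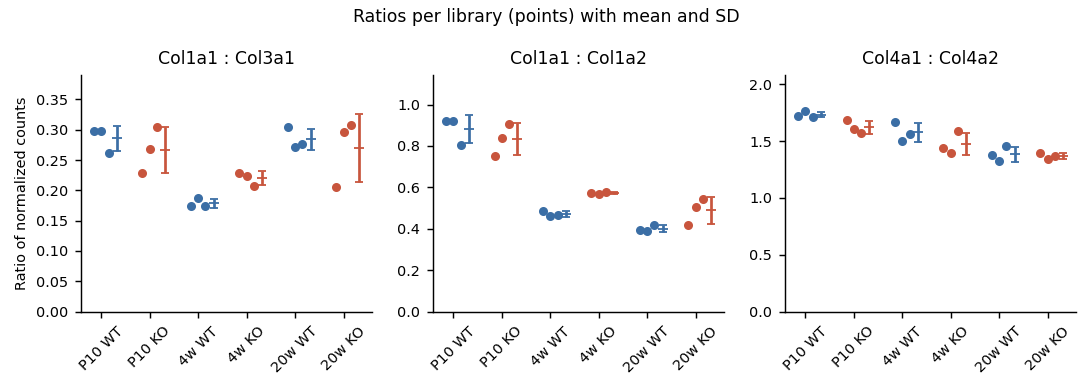
Ratios of normalized counts between pairs of collagen genes, with 1 point per library and the mean and SD of each group beside them. The Col1a1 to Col1a2 ratio goes from 0.883 in P10 WT to 0.401 in 20w WT, and the 3 ratios of 4w KO libraries (0.567 to 0.579) lie above those of 4w WT (0.462 to 0.488).

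Collagen genes were compared between KO and WT at each age. At P10, 1 of the 34 was lower and 0 higher, where 1.67% of all genes tested were lower and 0.591% higher. The median log2 fold change of the members was -0.09, against -0.01 for all genes. Groups did not overlap for 10 lower and 1 higher member, against 13.0% and 9.32% of all genes. The gene that passed was Col8a1, at 342, 369 and 360.3 in P10 KO against 529, 714 and 566 in P10 WT (log2 fold change -0.74 ± 0.18 SE, limma adjusted p = 0.04). Every KO library lay below every WT library. Col8a1 kept its direction in every alternative run, but leaving out P10 WT replicate 2 or 3, any P10 KO library, 4w KO replicate 2 or 20w WT replicate 2 or 3 ended the call (-0.78 to -0.61). A common total with or without Rn45s (limma adjusted p = 0.058 and 0.05), no filter on low values and the replicate block (0.051) also ended it. Col15a1, at 4473, 4153 and 4481 in P10 KO, was below all P10 WT libraries with -0.34 (95% interval -0.68 to -0.01, limma adjusted p = 0.34), and Col4a5 with -0.23 (0.1). Markers of smooth muscle and pericytes, of which all 8 were found, summed to 21748 to 23111 in P10 WT and 26218 to 26447 in P10 KO. The 8 macrophage markers found summed to 2024 to 2404 in P10 WT and 1848 to 2019 in P10 KO, and the 6 erythroid markers, 4 of them at 0 in every library, to 550.1 to 703 and 415 to 468. Their part in these values was not tested.

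None of the other major chains passed the test at P10. Col1a1 was at 8539, 10489.5 and 11294 in P10 KO, Col1a2 at 11342, 12497 and 12452 and Col3a1 at 37374, 38992 and 37142. Their log2 fold changes were -0.20, -0.11 and -0.09, none of which passed the test. Col4a1 was at 28674, 24998 and 26985 and Col4a2 at 17002, 15557 and 17169.5, with -0.11 and -0.01. Of type VI, Col6a1 was at 2939, 3260.1 and 3173, Col6a2 at 3146, 3167 and 3239 and Col6a3 at 3876, 3463 and 3578. Their values were -0.16, -0.08 and -0.23, with the Col6a1 and Col6a3 libraries below those of WT.

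At 4w, 0 of the 34 passed in either direction by limma, where 5.65% of all genes did. At an unadjusted p under 0.05 there was 1, Col6a1 (-0.25, limma adjusted p = 0.24). DESeq2 called 1 member lower and edgeR 0. The median of the members was -0.11 and that of all genes 0, and 25 members had a negative and 9 a positive sign. Groups did not overlap for 2 lower members, against 10.6% of all genes, and for 0 higher ones, against 11.3%. The 2 were Col6a1 and Col11a1. Col11a1 was at 11.8, 32.5 and 24.7 in 4w KO against 48.8, 35.7 and 40.6 in 4w WT (-0.93, limma adjusted p = 0.48). Col1a1 was at 1605, 1652 and 1826 in 4w KO, Col1a2 at 2804, 2913 and 3153 and Col3a1 at 6997, 7375 and 8812. All 3 overlapped the WT libraries given above, with 0.08, -0.20 and -0.23. Col4a1, at 10271, 9241 and 12607, had 0.07 and Col4a2, at 7125, 6630.2 and 7944, had 0.17. Col6a1, at 1268, 1469 and 1513, lay below all 4w WT libraries. Col6a2, at 1003, 1284 and 1424, had -0.10, Col6a3, at 1206, 1418 and 1646, had -0.11, and Col15a1, at 1416, 1451 and 1909.7, had 0.10. The 10 fibroblast markers without collagens summed to 30665 to 32610 in 4w WT and 23901 to 27892 in 4w KO. By limma, 3 of the 10 were lower in KO and 0 higher, where 5.65% of all genes passed in either direction. Their median log2 fold change was -0.24. The part of these markers in the collagen values was not tested.

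At 20w, 4 of the 34 were higher in KO and 0 lower, where 3.21% of all genes were higher and 4.28% lower. The median of the members was 0.24, against 0.01 for all genes, and 22 had a positive and 12 a negative sign. Groups did not overlap for 10 higher and 2 lower members, against 11.7% and 12.0% of all genes. Col5a3, a minor type V chain, was at 181, 122 and 133 in 20w KO against 64.2, 95.4 and 87.8 in 20w WT (0.81 ± 0.19 SE, limma adjusted p = 0.013). Col6a3 was at 1007, 795 and 1134 against 738, 730.3 and 637 (0.47 ± 0.13, limma adjusted p = 0.037). Col6a2 was at 695, 742 and 939 against 583, 612 and 555 (0.43 ± 0.13, limma adjusted p = 0.044). Col4a2 was at 4348, 4541 and 5376 against 4009.7, 3889.9 and 3483 (0.32 ± 0.1, limma adjusted p = 0.047). In all 4 genes every KO library lay above every WT library.

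These calls depended on single libraries. Without 20w KO replicate 3, 1 of the 34 was called, Col5a3 with 0.86 (limma adjusted p = 0.028), while Col6a3 had 0.35, Col6a2 0.30 and Col4a2 0.23 (limma adjusted p = 0.19 to 0.24). The count was 0 without 20w WT replicate 1, 1 without 20w WT replicate 2 or 3, and 2 without P10 WT replicate 3 or P10 KO replicate 2 or 3. Col5a3 lost its call without 20w WT replicate 1 or 20w KO replicate 1, with 0.64 each. Col6a3 lost its call in 5 of the 18 leave-outs, Col6a2 in 9 and Col4a2 in 12, all of them still positive. By edgeR 2 were higher and 1 lower, with 2 of the 4 calls shared, and a pseudocount of 5, quality weights and 4 leave-outs also gave 1 lower. With the replicate block 2 were called, with Col6a2 and Col4a2 losing theirs (limma adjusted p = 0.063 and 0.06). With only the 20w libraries in the fit, or with libraries scaled to a common total, 1 was called. A common total gave 408 calls among all genes, against 976 in the main fit.

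Several other abundant chains had positive values at 20w that did not pass the test. Col3a1 was at 2932, 2142 and 3415 in 20w KO, with 0.44 (95% interval 0.14 to 0.74, limma adjusted p = 0.07; DESeq2 adjusted p = 0.03). Col1a1 was at 602, 635 and 1053, with 0.34 (limma adjusted p = 0.24), and its lowest KO library, at 602, lay just above the highest WT library, at 589. Col1a2, at 1439, 1257 and 1927, had 0.06. Col4a1, at 6072, 6077 and 7359, had 0.31 (limma adjusted p = 0.13), Col6a1, at 785, 725 and 976, had 0.31 (0.1), and Col15a1, at 873, 956 and 1225, had 0.31 (0.28). The 2 members below all WT libraries were Col22a1, at 7.7, 17.8 and 12.8 against 37.6, 21.4 and 26.7 (-1.14, limma adjusted p = 0.067), and Col6a6, at 207, 175 and 131 against 227, 230.3 and 227 (-0.44, limma adjusted p = 0.066). The summed level per kb was 4084 ± 642 in 20w KO against 3300 ± 114 in 20w WT, with libraries at 3645 to 4821 against 3169 to 3376. The 8 markers of activated fibroblasts summed to 2350, 2389 and 3597 in 20w KO and to 2197 to 2293 in 20w WT. The 8 macrophage markers found summed to 3446 to 3855 in KO and 2933 to 3300 in WT, and the 10 fibroblast markers to 23706 to 25089 and 24662 to 25172. By limma, 2 of the 10 fibroblast, 1 of the 8 macrophage and 0 of the 8 activated fibroblast markers were higher in KO. None was lower, where 3.21% of all genes were higher and 4.28% lower. The median log2 fold change of the 10 fibroblast markers was 0.05. The part of these markers in the collagen values was not tested.

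**Figure D5:**
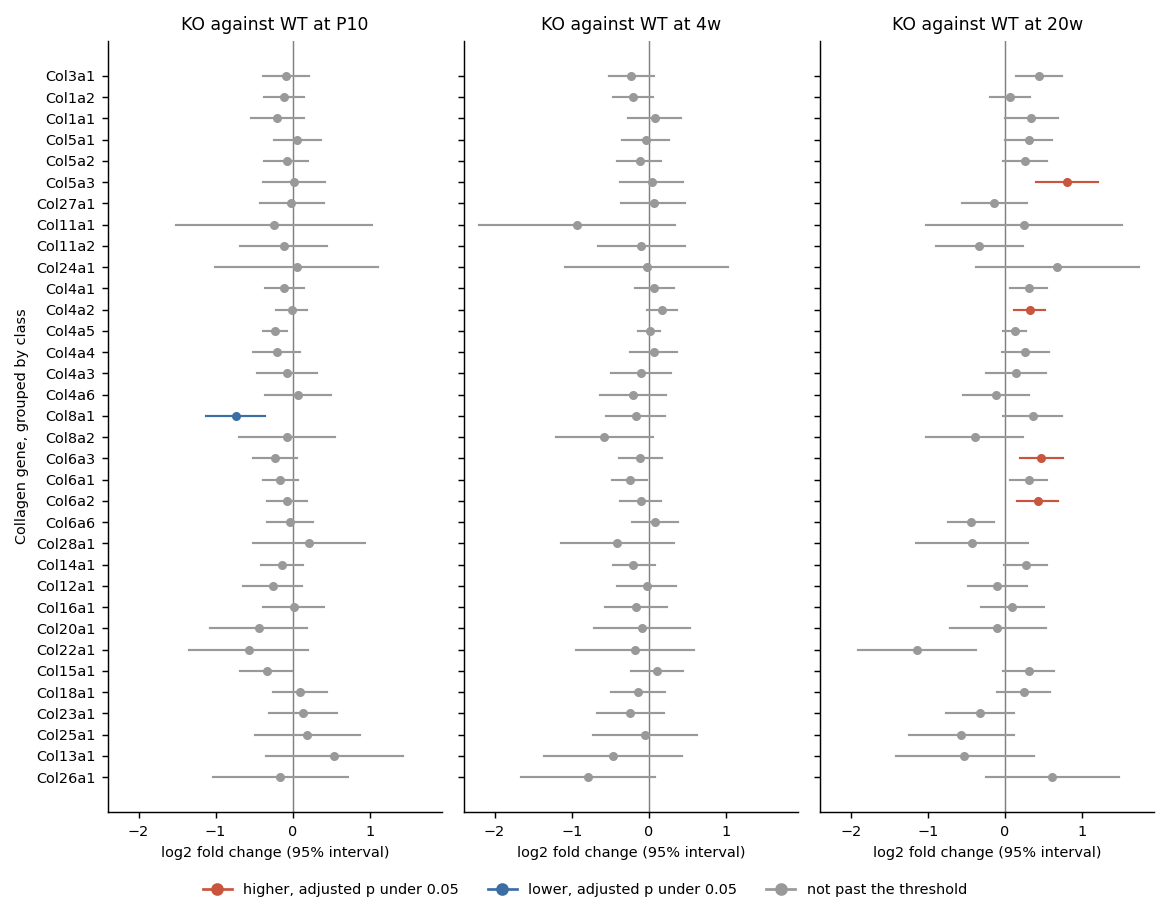
Log2 fold change of KO against WT with its 95% interval for each of the 34 collagen genes at P10, 4w and 20w. Colour marks an adjusted p under 0.05: Col8a1 is lower at P10, Col5a3, Col6a3, Col6a2 and Col4a2 are higher at 20w, and none passes at 4w.

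The KO effect differed between P10 and 20w for 2 of the 34 collagen genes, both towards higher values at 20w, where 1.93% of all genes differed in that direction and 1.82% in the other. For Col8a1, the KO effect was -0.74 at P10 and 0.36 at 20w, where its KO libraries were at 693, 680.3 and 1326. The difference was 1.10 ± 0.26 SE (limma adjusted p = 0.022). Without 20w KO replicate 3, the library at 1326, it was 0.78 (limma adjusted p = 0.025), and the call was lost without P10 WT replicate 2 or 20w WT replicate 3 (0.97 and 1.07). For Col6a3, the effects were -0.23 and 0.47, and the difference was 0.69 ± 0.19 (limma adjusted p = 0.047). Its call was lost in 13 of the 18 leave-outs, any P10 or 20w library but 20w KO replicate 2 among them, with values of 0.58 to 0.84 over all 18, and with the replicate block (0.69, limma adjusted p = 0.061). Without P10 WT replicate 2 or 20w WT replicate 3 the count of members was 0, and without 4w WT replicate 1 it was 4. It was 1 without P10 WT replicate 1 or 3, any P10 KO library, 4w KO replicate 2, 20w WT replicate 1 or 2, or 20w KO replicate 3. Col4a5 had 0.35 (limma adjusted p = 0.051). The median difference of the 34 was 0.34, against 0.02 for all genes. Between P10 and 4w, and between 4w and 20w, 0 members passed by limma, edgeR or DESeq2, where 1.26% and 0.192% of all genes did, and 2 and 8 members had an unadjusted p under 0.05.

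Within KO, most collagen genes also fell with age. From P10 to 4w, 25 of 34 fell and 1, Col8a1, rose, where 28.4% of all genes fell and 29.6% rose, with a median of -1.35. From 4w to 20w, 21 fell and 0 rose, where 9.81% fell and 9.48% rose, with a median of -0.64. Among the 21 abundant members, 17 fell and 1 rose in the first interval, and 17 fell and 0 rose in the second. The summed level per kb was 22741 ± 223 in P10 KO and 7228 ± 790 in 4w KO. Type III took 29.9% ± 1.01, 19.2% ± 0.5 and 12.4% ± 1.7 of it from P10 to 20w, and type IV 31.1% ± 1.66, 43.4% ± 1.71 and 47.9% ± 2.78. In 4w KO the type III share (18.6% to 19.5%) lay below that of 4w WT (21.0% to 22.5%) and the type IV share (41.7% to 45.1%) above it (38.1% to 40.2%), and these differences were not tested.

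Summed marker levels across ages are given beside the collagen values. In WT, the 10 fibroblast markers without collagens summed to 19668 to 21614 at P10, 30665 to 32610 at 4w and 24662 to 25172 at 20w. From P10 to 4w, 3 of the 10 rose, Gsn by 2.56 on the log2 scale, and 5 fell, with a median of -0.25, and from 4w to 20w 0 rose and 7 fell. Of the 8 cardiomyocyte markers, 7 rose from P10 to 4w and 0 fell, and 1 rose from 4w to 20w. Of all genes tested, 28.7% rose and 29.2% fell from P10 to 4w, and 13.3% rose and 11.8% fell from 4w to 20w. The 8 markers of activated fibroblasts, periostin (Postn) among them, summed to 16914 to 17354, 4573 to 8890 and 2197 to 2293. The 8 endothelial markers summed to 24456 to 25215, 15609 to 19277 and 15920 to 16137. Their part in the fall of the collagens was not tested.

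Genes that make, process and bind collagen were taken from 6 lists. Of all genes tested, 1.67% were lower and 0.591% higher in KO at P10, 5.65% passed in either direction at 4w, and 4.28% were lower and 3.21% higher at 20w. Enzymes and chaperones of procollagen folding had 2 of 18 tested members lower in P10 KO, Plod2 (-0.54, limma adjusted p = 0.0027), a lysyl hydroxylase, and P4ha1 (-0.53, limma adjusted p = 0.02), a prolyl hydroxylase subunit. Fkbp10, a collagen chaperone, was lower in KO at 4w (-0.79, limma adjusted p = 0.013) and at 20w (-1.51, limma adjusted p = 1.6e-05). P3h2, a prolyl 3-hydroxylase that acts on basement membrane collagen, was higher at 20w (0.82, limma adjusted p = 0.014). Of 12 genes of propeptide processing and crosslinking, 0 passed at P10 and 4w, and at 20w Loxl1, a lysyl oxidase, was higher (0.60) and the procollagen N-proteinase Adamts3 lower (-0.41). Of 14 fibril-associated proteins, 0 passed at P10. Dcn and Dpt, named next, are also among the fibroblast markers above, so the results at 4w are not separate. At 4w the small proteoglycan Dcn (-0.35) and Dpt (-0.34) were lower and fibronectin, Fn1, higher (0.42), and at 20w Thbs2 was lower (-0.51) and Mfap4 higher (0.80).

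Of 11 basement membrane partners, 0 passed at P10. Perlecan, Hspg2 (0.59), and the laminin chain Lamb2 (0.40) were higher at 4w, and the laminin chain Lama5 was lower at 20w (-0.64). Of 9 collagen receptors, 0 passed at P10 and 4w, and Itga10, an integrin that binds collagen, was lower at 20w (-0.97). Of 10 tested genes of collagen breakdown and its inhibitors, 0 passed at P10. The membrane-type metalloproteinase Mmp15 was higher at 4w (0.44), and Timp3, a metalloproteinase inhibitor bound to the matrix, was lower at 4w (-0.30, limma adjusted p = 0.043) and 20w (-0.56, limma adjusted p = 2.3e-04). The median log2 fold changes of the 6 lists lay between -0.17 and 0.05 at P10, -0.21 and 0.12 at 4w, and -0.06 and 0.24 at 20w.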

How the data were processed

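Each deposited value is a normalized signal: a read count divided by the size factor of its library, which the authors obtained with DESeq2, per the labels. Per the submitters' processing notes, Bowtie2 2.0, DESeq2 and build mm9 were used; no source used here gives the counter, its strand setting or the annotation, so reads of overlapping genes cannot be told apart. Whole reads were recovered for 100% of values (tolerance 0.001 reads). Of the entries, 27 with names turned into dates (at most 0.204% of a library's reads) cannot be assigned to a gene and were treated like any other entry.

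Genes with a mean of at least 10 were tested with limma 3.58.1 (R 4.3.3) on log2(value + 1), with 6 group means, moderation along a mean trend and Benjamini-Hochberg adjustment over 13032 genes. Calls required an adjusted p under 0.05. A fold change on this scale understates that of low genes. SE is the model's standard error. edgeR 4.0.16 and DESeq2 1.42.0 were run on recovered reads as alternatives. Ratios were tested by exact permutation. Transcript lengths and neighbours come from GENCODE on GRCm38, another build than mm9. The code was tested on simulated data.

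The members and lists were chosen with earlier results of these data known. Values per library are given for Col1a1, Col1a2, Col3a1, Col4a1, Col4a2, Col6a1, Col6a2, Col6a3, Col15a1 and every member called between genotypes. The 3 highest and 3 lowest called members are named per WT interval, and up to 4 genes per list.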

Additional observations from a re-analysis of the deposited data

Results flagged for a closer look

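For 2 collagen genes the effect of Klf15 loss differed between P10 and 20w by a test of the difference itself, the interaction term of the limma model. For Col8a1 the KO effect was higher at 20w than at P10 by 1.10 on the log2 scale (limma adjusted p = 0.022), and 2 of the 3 20w KO libraries lay within the range of 20w WT. For Col6a3 it was higher by 0.69 (limma adjusted p = 0.047), with every P10 KO library below and every 20w KO library above the WT libraries of its age.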

How the results depend on the processing

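The alternatives were edgeR and DESeq2 on recovered reads, 2 other scalings of the libraries, pseudocounts of 0.5 and 5, no filter and a mean of at least 50, quality weights, only the groups of a contrast, a replicate block, and leaving out each of the 18 libraries. The decline with age kept its counts within 1.5 times in all of them. Leaving out 1 library gave 24 to 27 members from P10 to 4w in WT and in KO, 21 to 26 from 4w to 20w in WT and 16 to 23 in KO. Of 98 calls between ages among 136 member values, 81 held under every one of the 29 alternatives in which the gene was tested. Members with a mean under 50, Col24a1 and Col26a1 among them, were not tested under the filter at a mean of at least 50. The value of Col4a4 from P10 to 4w in KO was 0.01, and -0.48 with a common total (limma adjusted p = 0.029), where the median of all genes was -0.484. With Rn45s left out of the total, that median of all genes was -0.312.

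The genotype counts moved more. At P10, where 1 member was called, DESeq2 and the fit of only the compared groups gave 2 and quality weights 3, while both scalings, no filter and the replicate block gave 0. At 20w, where 4 were called, both scalings, no filter and only the compared groups gave 1, the replicate block 2 and quality weights 7, while edgeR gave 3, of which 2 were shared and 1 was lower. At 4w DESeq2 gave 1. For the KO effect at 20w against P10, where 2 were called, both scalings, no filter and the replicate block gave 1, only the compared groups 4 and quality weights 8. Leave-outs gave 0 to 1 at P10, 0 to 5 at 20w, 0 to 4 for the effect at 20w against P10, and 0 to 1 for each of the other effect differences. Of all genes, the main fit called 295 at P10, 976 at 20w and 488 for the KO effect at 20w against P10. A common total gave 109, 408 and 161, and with Rn45s left out of the total 281, 922 and 448. For the other settings, counts of all genes are not given here. A common total put the median of all genes for KO against WT at 4w at -0.236 and that of the collagens at -0.35. With Rn45s left out of the total, these medians were -0.069 and -0.18. The cause of these moves was not tested.

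The log2 ratio of Col1a1 to Col1a2 in KO against WT ranged from 0.131 to 0.195 over leave-outs, that of Col4a1 to Col4a2 from -0.088 to -0.0563 and that of Col1a1 to Col3a1 from -0.00165 to 0.096. The labels do not say whether equal column numbers pair the libraries. Deviations of same-numbered WT and KO libraries within an age correlated at -0.25 to 0.12. Such correlations cannot exclude a pairing, and libraries of different ages were not compared in this way. The replicate block is given as an alternative. Depth limits Col24a1, Col26a1 and Col11a1 at 20w, where they were at 0 to 16.4 normalized counts.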

Other observations

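The same 6 lists were compared between ages in WT. Of 12 genes of propeptide processing and crosslinking, 9 fell and 1 rose from P10 to 4w, and 8 fell and 0 rose from 4w to 20w, with medians of -0.85 and -0.54. Lox, the principal lysyl oxidase of collagen crosslinks, fell by 2.38 in the first interval (limma adjusted p = 4.5e-11), and Loxl2 fell by 1.31 and 1.66. Of 14 fibril-associated proteins, 9 fell and 2 rose, then 10 fell and 0 rose. Fn1, fibronectin, fell by 2.60 in the first interval, and Sparc, a collagen-binding chaperone of the matrix, by 1.61 in the second. Of 11 basement membrane partners, 9 fell and 2 rose, then 6 fell and 1 rose, with the collagen IV crosslinking peroxidase Pxdn falling by 1.81 and 0.71.

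Of 18 folding genes, 5 rose and 7 fell from P10 to 4w, and 1 rose and 7 fell from 4w to 20w. P4ha2 (1.00) and P4ha1 (0.60), subunits of the prolyl hydroxylase, rose in the first interval, and Serpinh1, the collagen chaperone HSP47, fell by 0.96 in the second. Of 10 genes of breakdown and its inhibitors, 3 rose and 7 fell from P10 to 4w: Timp4 (3.64) and Timp3 (1.48) rose, and Mmp14, a membrane-anchored collagenase, fell by 2.88. From 4w to 20w, 4 fell and 0 rose, Mmp2 by 1.08. Of 9 collagen receptors, 4 fell from P10 to 4w and 2 from 4w to 20w, with 0 rising in either interval, and Itga1 fell by 0.90 in the first. The share of all genes called in these intervals is given with the collagen counts above.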
